A study of Homo sapiens with 27 samples.

Results

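RUNX2, SP7, DLX5, MSX2, ALPL, SPARC, SPP1, IBSP and BGLAP, 9 genes of the osteoblast lineage, were read by symbol from count tables that list 55882 genes, and all 9 were found. The RNA came from U2OS cells, a human osteosarcoma line, stably transduced with lentivirus and selected with puromycin. The control line carried the blank pLKO.1 vector, while the MMP2sh1 (23) and MMP2sh2 (26) lines each carried a pLKO.1 short hairpin RNA against MMP2, which encodes the MMP-2 protease. The control libraries are titled U2OS WT, without the vector, whereas the text of the study names pLKO.1 cells as the control of its RNA sequencing. Cells of each line were plated at 30% confluence and harvested at day −2 (subconfluent), day 0 (confluent) and day +2 (overconfluent). Poly(A) RNA was sequenced from 3 libraries in each of these 9 groups, 27 in all, which the study describes as independent biological replicates. Each hairpin is represented by 1 stable line, so that a hairpin cannot be told apart from the line that carries it.

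Osteoblasts are the cells that build bone. They arise from mesenchymal progenitors under RUNX2 and then SP7 (osterix), transcription factors without which bone does not form. The homeobox factors DLX5 and MSX2 act on the same genes, DLX5 largely as an activator and MSX2 largely as a repressor. Maturing osteoblasts make tissue-nonspecific alkaline phosphatase (ALPL), an ectoenzyme that removes the mineralisation inhibitor pyrophosphate, and they secrete SPARC (osteonectin), SPP1 (osteopontin), IBSP (bone sialoprotein) and, late, BGLAP (osteocalcin). Osteosarcomas are tumours of this lineage that often stop short of the mature state.

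RUNX2 binds a short core, TGTGGT, and homeodomain factors such as DLX5 and MSX2 bind around TAATTA. Both were searched for on both strands of the RefSeq promoter windows, which run from 250 bases before to 50 bases after a transcription start, and 7 of the 9 genes had at least 1 window (10 windows in all). SP7 and DLX5 had no entry. In all, 4 windows held at least 1 of these cores, and their 250 upstream bases are shown on the gene's strand, 5′ to 3′. Of the 4 genes, RUNX2 and SPP1 rose from day −2 to day +2 in every line, MSX2 fell, and BGLAP was near the limit of detection. Without a core, SPARC also rose in every line, and ALPL fell in control and MMP2sh1. A link between the cores and these changes was not tested. Capitals mark the RUNX core, read here as its reverse complement ACCACA, or in MSX2 the homeodomain core TAATTA. The windows come from a GRCh38.p14 table and each matched GRCh37 exactly at 1 place, whose positions are given.
RUNX2 distal start, chr6:45295817-45296066, plus strand: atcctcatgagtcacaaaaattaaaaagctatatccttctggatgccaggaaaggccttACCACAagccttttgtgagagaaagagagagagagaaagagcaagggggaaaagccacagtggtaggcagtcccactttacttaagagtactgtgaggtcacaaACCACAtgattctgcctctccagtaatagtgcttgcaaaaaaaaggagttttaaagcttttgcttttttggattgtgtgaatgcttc
SPP1, chr4:88896616-88896865, plus strand: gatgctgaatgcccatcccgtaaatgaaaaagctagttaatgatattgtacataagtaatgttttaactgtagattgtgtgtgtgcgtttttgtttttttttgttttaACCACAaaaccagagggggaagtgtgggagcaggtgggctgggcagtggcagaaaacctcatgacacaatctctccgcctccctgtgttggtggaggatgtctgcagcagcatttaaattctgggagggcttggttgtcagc
BGLAP, chr1:156211725-156211974, plus strand: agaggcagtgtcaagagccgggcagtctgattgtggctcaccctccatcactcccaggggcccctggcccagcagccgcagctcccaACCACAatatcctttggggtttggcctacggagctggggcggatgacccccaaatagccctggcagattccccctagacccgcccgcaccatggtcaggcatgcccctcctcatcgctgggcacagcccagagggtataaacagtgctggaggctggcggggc
MSX2, chr5:174151335-174151584, plus strand: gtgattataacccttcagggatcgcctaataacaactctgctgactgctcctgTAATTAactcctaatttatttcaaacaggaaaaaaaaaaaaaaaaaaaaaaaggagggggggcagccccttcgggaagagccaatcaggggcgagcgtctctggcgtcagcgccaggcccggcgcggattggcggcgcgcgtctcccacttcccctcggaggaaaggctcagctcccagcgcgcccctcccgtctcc
The RUNX2 window held 4 RUNX cores, whose first bases lie at −191, −87, +17 and +25 from the start, the last 2 beyond the bases shown. SPP1 held 1 core at −142 and BGLAP 1 at −163, and MSX2 held 1 homeodomain core at −197. No core of either kind was found in the windows of SPARC, IBSP or ALPL, nor at the proximal RUNX2 start. Of the 35116 promoters in the table, 13.1% held the RUNX core and 4.84% the homeodomain core, so that a match is a description of the letters and not a site.

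On GRCh37 the transcription factor genes lie at chr6:45295894-45632086 (RUNX2, plus strand, 9 exons in the canonical transcript), chr12:53720359-53739099 (SP7, minus, 3 exons), chr7:96649708-96654262 (DLX5, minus, 3 exons) and chr5:174151585-174157899 (MSX2, plus, 2 exons). ALPL lies at chr1:21835890-21904903 (plus, 12 exons). Among the matrix genes, SPARC lies at chr5:151040657-151066536 (minus, 10 exons), SPP1 at chr4:88896819-88904684 (plus, 7 exons), IBSP at chr4:88720706-88733587 (plus, 7 exons) and BGLAP at chr1:156211975-156213108 (plus, 4 exons). BGLAP shares 40.9% of its exon bases with PMF1-BGLAP, a readthrough gene that starts in its neighbour PMF1. The union mode of the counter, HTSeq, sets aside reads that fall on 2 annotated genes as ambiguous, so the BGLAP counts may be too low.

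The 27 libraries held 33580129 to 59374327 reads counted on genes (median 40075178), and mitochondrial genes took 4.16% to 7.15% of them. MMP2 itself was lower in MMP2sh1 than in control, with log2 fold changes of −2.53, −2.47 and −2.34 at days −2, 0 and +2, and lower in MMP2sh2, with −0.70, −1.06 and −0.82, with no overlap between libraries at any day. Both hairpin lines thus carried the labelled change, by unequal amounts. Levels are given as CPM, read counts scaled to library size with TMM factors over the 27 libraries, as the mean ± SD of 3 libraries.

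SPARC was by far the most abundant of the 9 mRNAs per length. At 313 CPM per kilobase of exon (mean of 27 libraries, 251 to 450), its level lay above that of 99.4% of the 12837 genes with at least 1 CPM and a known exon length. RUNX2 followed at 5.66 CPM per kilobase, above 52.3% of those genes, then MSX2 at 3.66, SPP1 at 1.76 and ALPL at 0.91 CPM per kilobase. The ranges of RUNX2 and MSX2 over the 27 libraries overlapped, as did those of MSX2 and SPP1 and of SPP1 and ALPL. DLX5 (0.20 CPM per kilobase), BGLAP (0.14) and SP7 (0.011) came last among the detected genes, and IBSP had no read in any library. The labelled osteosarcoma origin thus came with abundant SPARC and with RUNX2 in every library, whereas SP7, BGLAP and IBSP were at or near 0. MSX2, SPP1 and ALPL were above 0 in every library, at levels above 40.9%, 25.1% and 14.6% of the same genes. DLX5 was above 0 in every library too, with 2 to 30 reads.

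**Figure D1:**
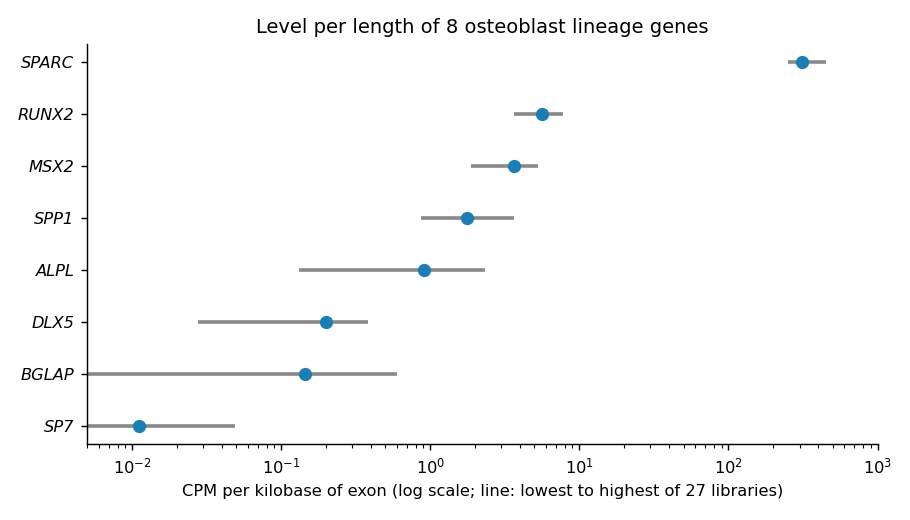
Level per length of the 8 genes with at least 1 read, in CPM per kilobase of exon on a log axis. Points are means of 27 libraries and lines run from the lowest to the highest library; the lines of BGLAP and SP7 reach the left edge because their lowest library was at 0. SPARC lies at 313, RUNX2 at 5.66 and SP7 at 0.011.

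RUNX2 mRNA rose in all 3 lines as the cultures filled. In control it was at 36.9, 36.8 and 35.4 CPM in the 3 libraries of day −2, at 51.5, 54.3 and 51.9 CPM at day 0 and at 63.1, 55.8 and 55.6 CPM at day +2, so that no library of one day overlapped another day. Its log2 fold change from day −2 to day +2 was 0.66 (SE 0.06, adjusted p = 1.1e-09 by edgeR, whose quasi-likelihood p-values were adjusted by Benjamini-Hochberg over all genes tested). These are bulk samples, in which a change in the share of cells that express a gene and a change in the RNA of each cell cannot be told apart. MMP2sh1 libraries went from 29.9, 35.1 and 33.4 CPM to 52.8, 51.0 and 55.2 CPM (log2 fold change 0.67, SE 0.08, adjusted p = 1.1e-07, edgeR), and those of MMP2sh2 from 33.0, 33.8 and 35.9 CPM to 63.7, 58.6 and 63.6 CPM (0.86, SE 0.07, adjusted p = 8.4e-12, edgeR). Most of the control rise came before confluence. The step to day 0 was 0.53 (adjusted p = 6.0e-08, edgeR), and the step from day 0 to day +2 was 0.15 (95% interval 0.02 to 0.28) with an adjusted p of 0.0521 from edgeR. In the hairpin lines both steps passed the test, at 0.34 and 0.35 in MMP2sh1 and at 0.47 and 0.41 in MMP2sh2.

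MSX2, which encodes a homeobox repressor, moved the other way. Control libraries held 9.80, 10.2 and 9.80 CPM at day −2, 8.36, 9.01 and 8.18 CPM at day 0 and 5.82, 7.88 and 6.27 CPM at day +2 with no overlap between days, although the first step did not pass the test (−0.22, 95% interval −0.46 to 0.02, adjusted p = 0.143, edgeR). That step was −0.27 in MMP2sh1 (adjusted p = 0.111, edgeR) and passed the test in MMP2sh2 (−0.35, adjusted p = 0.032, edgeR), where the call was lost without day −2 replicate 3 or any 1 of the 3 day 0 libraries (adjusted p 0.0502 to 0.134). The log2 fold change over the expansion was −0.59 in control (SE 0.13, adjusted p = 4.2e-04), −0.99 in MMP2sh1 (SE 0.15, adjusted p = 4.0e-06) and −0.87 in MMP2sh2 (SE 0.16, adjusted p = 1.9e-05), each by edgeR. Mean levels reached 5.23 ± 0.260 CPM in MMP2sh1 and 5.69 ± 1.47 CPM in MMP2sh2 at day +2, from 10.2 ± 1.39 and 10.4 ± 1.19 CPM. The fall from day 0 to day +2 passed the test in all 3 lines (−0.35, −0.70 and −0.50), but the control value (adjusted p = 0.0445, edgeR) lost the call when any of 5 of its 6 libraries was left out, all but day +2 replicate 2 (adjusted p 0.0587 to 0.193). That of MMP2sh2 lost it without day +2 replicate 1 (−0.32, adjusted p = 0.0977, edgeR).

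DLX5 and SP7, the other 2 transcription factor genes, were near the limit of detection. DLX5, a homeobox activator of osteoblast genes, had 2 to 30 reads per library, and its lowest and highest group means were 0.229 ± 0.0739 CPM in MMP2sh1 at day +2 and 0.528 ± 0.106 CPM in MMP2sh1 at day 0. Those 6 libraries did not overlap, with 18 to 30 reads against 6 to 11, but the difference did not pass the test (log2 fold change −1.19, 95% interval −2.36 to −0.02, adjusted p = 0.09, edgeR). No comparison called DLX5. SP7, which acts after RUNX2, had no read in 15 of 27 libraries and at most 6 in the others, and over 3 reads in only 6 libraries. Of those, 3 were the MMP2sh2 day 0 libraries, with 6, 5 and 6 reads against 0, 0 and 0 at day −2 of the same line and 0, 0 and 0 in control at day 0. SP7 was below the filter on low counts in every comparison. With that filter removed, edgeR gave the MMP2sh2 step an adjusted p of 0.0393 and the difference from control at day 0 one of 0.0687. DESeq2 gave no adjusted p for either. Both set the group with the highest SP7 mean of the 9 against a group at 0, so they are a description only. In every other comparison without the filter, edgeR gave an adjusted p of 0.184 or more.

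ALPL, the alkaline phosphatase gene, fell steeply on the way to confluence in every line. Control libraries held 4.17, 3.21 and 4.11 CPM at day −2, against 0.993, 1.51 and 1.67 CPM at day 0 and 1.81, 1.65 and 1.68 CPM at day +2. The step to day 0 was −1.47 in control (SE 0.24, adjusted p = 2.2e-05), −1.93 in MMP2sh1 (SE 0.21, adjusted p = 4.4e-07) and −1.60 in MMP2sh2 (SE 0.37, adjusted p = 0.00164), each by edgeR on the log2 scale, and no library of day 0 reached the day −2 libraries of its line. From day 0 to day +2 ALPL rose in MMP2sh1 from 1.54, 1.35 and 1.73 CPM to 3.21, 3.65 and 2.59 CPM (1.03, SE 0.24, adjusted p = 0.00118, edgeR) and in MMP2sh2 from 0.607, 1.91 and 0.396 CPM to 2.35, 2.49 and 3.75 CPM (1.57, SE 0.37, adjusted p = 8.8e-04, edgeR). Control libraries overlapped between these days, with a log2 fold change of 0.31 (95% interval −0.32 to 0.94, adjusted p = 0.462, edgeR), and the difference between lines in this step was not tested. Over the whole expansion ALPL fell by 1.18 on the log2 scale in control (adjusted p = 5.6e-05, edgeR) and by 0.91 in MMP2sh1 (adjusted p = 5.6e-04, edgeR). In MMP2sh2 it was −0.05 (95% interval −0.52 to 0.43, adjusted p = 0.875, edgeR), and the libraries of days −2 and +2 overlapped. The counts behind these values run from 15 to 258 reads per library, and MMP2sh2 day 0 was the most uneven group, with 22, 69 and 15 reads. Without its replicate 2, the library of 69 reads, the step to day 0 was −2.55 and that to day +2 was 2.51, and over all fits that leave out 1 library they ranged from −2.55 to −1.23 and from 1.18 to 2.51, each past the test.

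SPARC, a collagen-binding matrix glycoprotein, rose late, with its largest fold change in MMP2sh1. In control it held at 1224, 1246 and 1249 CPM at day −2 and 1231, 1287 and 1300 CPM at day 0, which overlapped, and then reached 1587, 1552 and 1560 CPM at day +2. The log2 fold change over the expansion was 0.32 in control (SE 0.04, adjusted p = 2.6e-07), 0.54 in MMP2sh1 (SE 0.05, adjusted p = 1.1e-08) and 0.22 in MMP2sh2 (SE 0.05, adjusted p = 3.0e-04), each by edgeR. MMP2sh1 ended at 2088, 2031 and 2074 CPM, above every other library of the series. MMP2sh2 dipped first, from 1322 ± 36.7 to 1186 ± 17.7 CPM at day 0 (−0.14, adjusted p = 0.0129, edgeR; 0.0824 without day 0 replicate 1), and then rose to 1536 ± 30.6 CPM. With 42272 to 86673 reads per library, SPARC had the smallest standard errors of the members tested.

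SPP1, a phosphorylated matrix and adhesion protein, rose in all 3 lines after confluence. Control libraries held 10.7, 9.27 and 9.69 CPM at day −2, 7.80, 8.26 and 6.90 CPM at day 0 and 20.1, 20.4 and 20.8 CPM at day +2. The step from day 0 to day +2 was 1.42 in control (SE 0.10, adjusted p = 1.3e-12), 1.50 in MMP2sh1 (SE 0.10, adjusted p = 1.9e-11) and 1.50 in MMP2sh2 (SE 0.11, adjusted p = 2.4e-12) on the log2 scale, each by edgeR. At day +2 MMP2sh1 libraries held 22.2, 22.8 and 26.5 CPM and MMP2sh2 libraries 19.6, 19.8 and 18.6 CPM. Before confluence the change was small and downward. It passed the test in control (−0.37, adjusted p = 0.0195, edgeR), where it lost the call without day −2 replicate 1 (adjusted p = 0.107) or day 0 replicate 3 (adjusted p = 0.0851). In MMP2sh1 it was −0.30 (95% interval −0.55 to −0.05, adjusted p = 0.0622) and in MMP2sh2 −0.14 (−0.43 to 0.14, adjusted p = 0.477), both by edgeR.

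**Figure D2:**
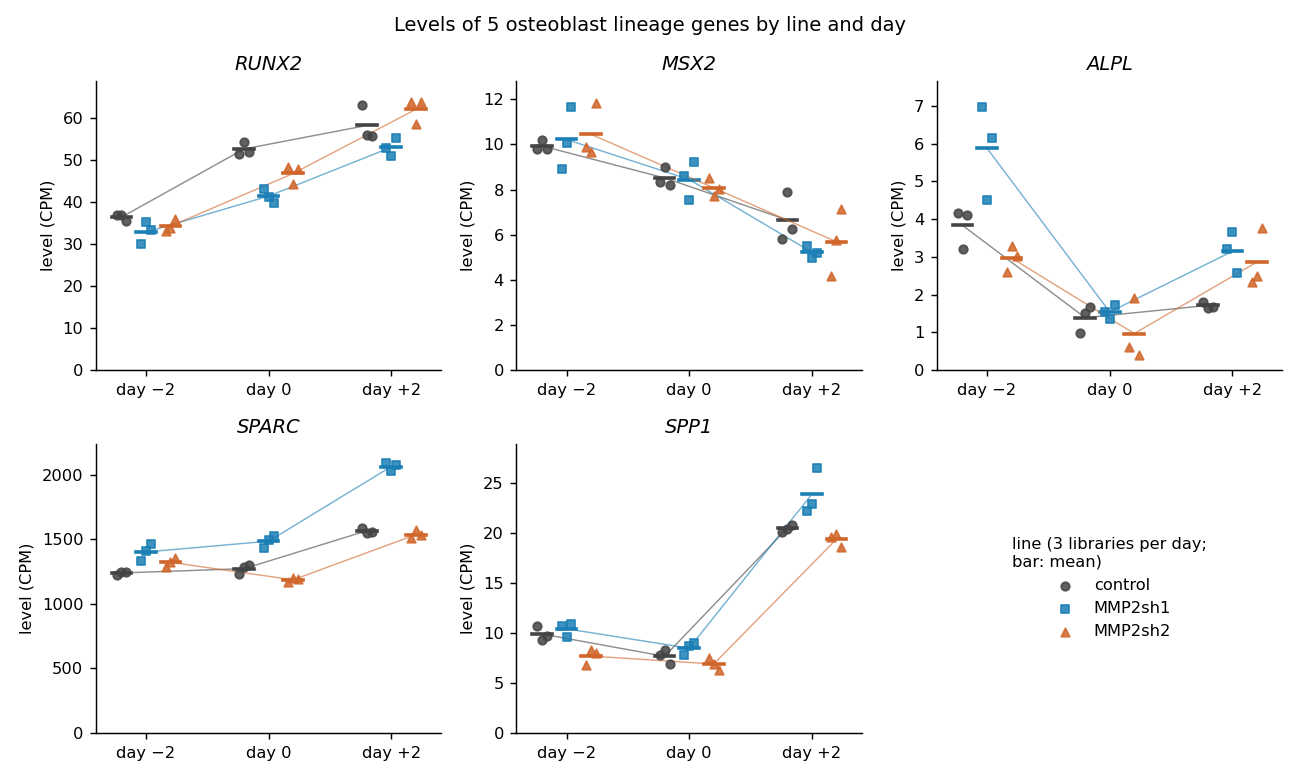
Levels of RUNX2, MSX2, ALPL, SPARC and SPP1 in CPM (vertical axes from 0) by day, with 1 point per library and a bar at the mean of 3, joined by lines within each line of cells. RUNX2 climbs and MSX2 declines in each line, ALPL dips at day 0, SPP1 rises after day 0 to between 18.6 and 26.5 CPM, and MMP2sh1 stands above the other lines for SPARC at day +2.

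BGLAP, the osteocalcin gene, had 0 to 22 reads per library. In control the 3 libraries of day −2 held 1, 2 and 0 reads and those of day 0 held 1, 0 and 0, against 9, 17 and 6 reads at day +2. The filter on low counts left BGLAP out of these comparisons. Without the filter, edgeR gave an adjusted p of 0.0188 for day +2 against day −2 and of 0.00611 for day +2 against day 0, and DESeq2 gave 0.0162 and 0.005. The log2 fold changes from these edgeR fits, 3.46 and 4.75, are uncertain in size, since the lower groups held 3 and 1 reads in all. Libraries of these days overlapped in each hairpin line. MMP2sh1 held 6, 11 and 10 reads at day −2, 2, 8 and 1 at day 0, and 22, 9 and 0 at day +2. MMP2sh2 held 2, 1 and 10 reads at day −2, 6, 8 and 2 at day 0, and 7, 7 and 0 at day +2. The difference of the hairpin responses, from day −2 to day +2, from that of control did not pass the test (adjusted p = 0.213 for MMP2sh1 and 0.239 for MMP2sh2, edgeR). The neighbour PMF1 had 413 to 944 reads per library and fell in control over the same days (−0.40, adjusted p = 0.00132, edgeR), and PMF1-BGLAP had 3 reads in 1 library and none in the other 26. IBSP, a mineral-binding matrix protein, had 0 reads in all 27 libraries, which allows at most 3 reads, or 0.0497 to 0.0882 CPM, in each (counting error only).

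**Figure D3:**
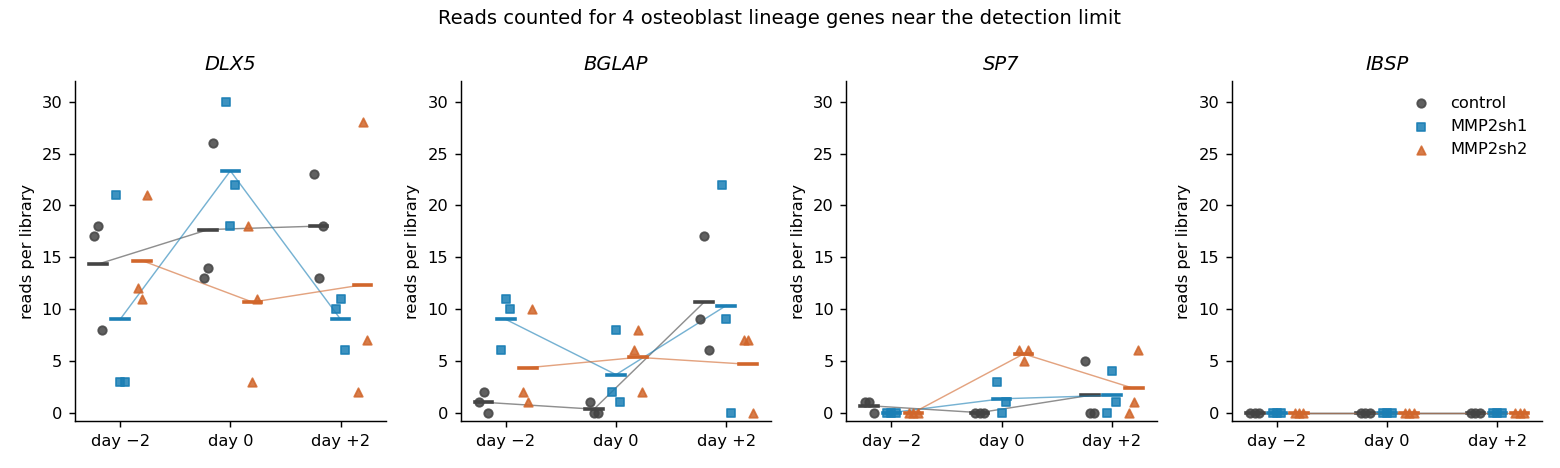
Reads counted per library for DLX5, BGLAP, SP7 and IBSP by day, with 1 point per library and a bar at the mean of 3. No gene exceeds 30 reads, IBSP is at 0 throughout, SP7 reaches 5 or 6 reads in the 3 MMP2sh2 day 0 libraries, and control BGLAP rises from 0 to 2 reads before day +2 to 6 to 17.

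The expansion changed most of the members that could be tested, and it changed 56.8% of all genes tested in control. Of the 9, only RUNX2, DLX5, MSX2, ALPL, SPARC and SPP1 passed the filter. In control 5 of these 6 were called between days −2 and +2: RUNX2, SPARC and SPP1 rose and MSX2 and ALPL fell, against 28.1% of all genes called higher and 28.6% lower. MMP2sh1 gave the same calls, against 54.9% of all genes (27.3% higher, 27.7% lower). In MMP2sh2 the same 3 genes rose and MSX2 alone fell, against 54.7% of all genes (27.7% higher, 27.1% lower). Up to confluence, 3 of 6 were called in control, 2 in MMP2sh1 and 4 in MMP2sh2, where 35.5%, 32.7% and 30.3% of all genes were. Beyond confluence, 3 were called in control and 5 in each hairpin line, where 41.4%, 46.0% and 45.5% of all genes were.

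**Figure D4:**
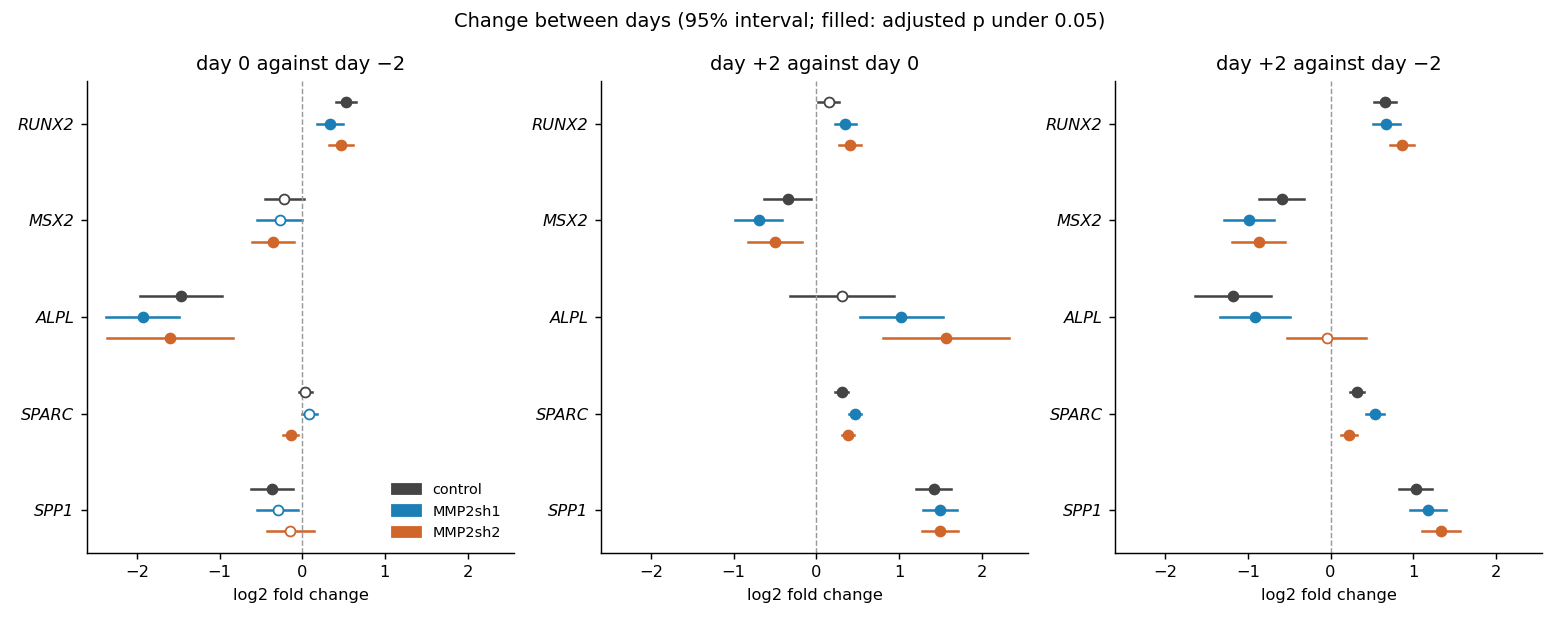
Log2 fold changes of 5 genes between days in each line, from edgeR on 3 libraries against 3, with 95% intervals; filled points have an adjusted p under 0.05. RUNX2 lies right of 0 in the step to day 0 and ALPL left of it in all 3 lines, SPP1 lies at 1.42 to 1.50 in the step to day +2, and ALPL over the whole expansion is near 0 in MMP2sh2 alone.

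Depletion of MMP2 was compared with control at each day to ask which of these genes differed with the hairpins. SPARC was higher in MMP2sh1 at every day, by 0.17 (SE 0.05, adjusted p = 0.024), 0.22 (SE 0.03, adjusted p = 1.0e-05) and 0.40 (SE 0.04, adjusted p = 5.5e-08) on the log2 scale by edgeR, and no library overlapped control. In MMP2sh2 the values of SPARC against the same control libraries were 0.07 (adjusted p = 0.363), −0.11 (adjusted p = 0.0377) and −0.02 (adjusted p = 0.853) by edgeR. The 2 hairpin lines were not tested against each other. The day −2 call in MMP2sh1 was lost without any of control replicates 1 and 2 and MMP2sh1 replicates 2 and 3 (adjusted p 0.0671 to 0.154), and the day 0 call in MMP2sh2 without any of control replicates 2 and 3 and MMP2sh2 replicates 1 and 3 (adjusted p 0.0649 to 0.161).

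ALPL was higher in MMP2sh1 than in control at day −2 (5.87 ± 1.25 against 3.83 ± 0.536 CPM; log2 fold change 0.61, SE 0.18, adjusted p = 0.0298, edgeR) and at day +2 (3.15 ± 0.533 against 1.72 ± 0.0868 CPM; 0.88, SE 0.24, adjusted p = 0.0113, edgeR). At day 0 it was 0.15 (95% interval −0.47 to 0.77, adjusted p = 0.816, edgeR). The day −2 call was lost without control replicate 2, MMP2sh1 replicate 1 or MMP2sh1 replicate 3 (adjusted p 0.0887 to 0.154) and in a fit of all 27 libraries (adjusted p = 0.145), and the day +2 call without MMP2sh1 replicate 2 (adjusted p = 0.0772). In MMP2sh2 ALPL was −0.39 at day −2 and 0.74 at day +2 (95% interval 0.24 to 1.25), neither past the test (adjusted p = 0.237 and 0.0652, edgeR). The 3 MMP2sh2 libraries of day +2 all lay above the 3 control libraries, which describes their order and is not a test.

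RUNX2 was lower in MMP2sh1 than in control at day 0, at 43.1, 41.2 and 39.9 CPM against 51.5, 54.3 and 51.9 CPM (−0.35, SE 0.06, adjusted p = 7.0e-05, edgeR). The MMP2sh2 value at that day was −0.17 (95% interval −0.30 to −0.05, adjusted p = 0.0574, edgeR), with its 3 libraries, 48.2, 44.2 and 47.9 CPM, also below control. At days −2 and +2 RUNX2 did not pass the test in either line, with values between −0.15 and 0.10. SPP1 was lower in MMP2sh2 at day −2 (−0.38, SE 0.13, adjusted p = 0.0473, edgeR), a call lost without any 1 of the 6 libraries (adjusted p 0.0521 to 0.229). MSX2 passed the test in neither line, with its largest value at day +2 in MMP2sh1 (−0.35, 95% interval −0.67 to −0.03, adjusted p = 0.139, edgeR).

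Against control, 2 of 6 genes tested were called in MMP2sh1 at day −2 (both higher), 2 of 6 at day 0 (1 in each direction) and 2 of 7 at day +2 (both higher). All genes gave 11.6% called at day −2 (5.42% higher, 6.14% lower), 16.8% at day 0 (8.26% higher, 8.58% lower) and 14.8% at day +2 (7.68% higher, 7.11% lower). In MMP2sh2, 1 of 6 was called at day −2 and 1 of 6 at day 0, both lower, and 0 of 6 at day +2. There the shares of all genes were 11.0% (4.71% higher, 6.33% lower), 12.9% (7.07% higher, 5.81% lower) and 6.32% (2.89% higher, 3.43% lower). At day +2 in MMP2sh2, 1 gene, ALPL, had an unadjusted p under 0.05 by edgeR, and DESeq2 also called 0. Both hairpin lines were set against the same control libraries.

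**Figure D5:**
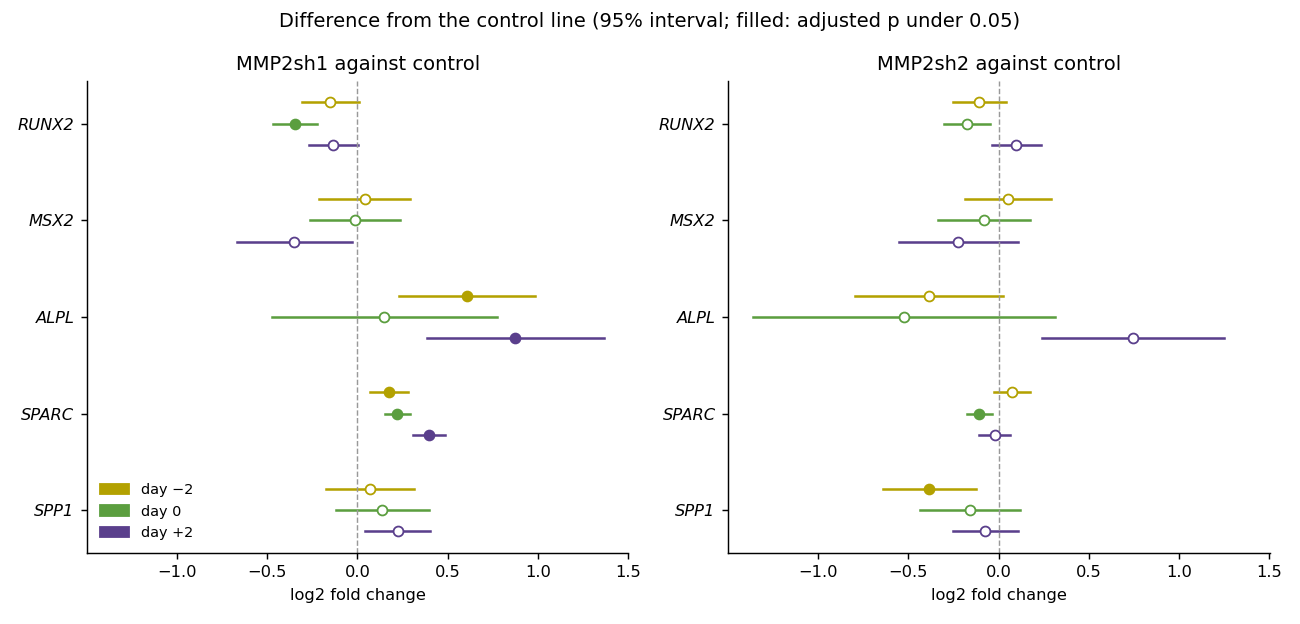
Log2 differences of 5 genes from control in MMP2sh1 (left) and MMP2sh2 (right) at each day, from edgeR on 3 libraries against 3, with 95% intervals; filled points have an adjusted p under 0.05. SPARC in MMP2sh1 is filled at all 3 days, from 0.17 to 0.40, and in MMP2sh2 lies between −0.11 and 0.07.

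Whether the lines differed in their response was tested as the interaction of line and day over the 12 libraries of days −2 and +2. SPARC rose more in MMP2sh1 than in control, by 0.23 (SE 0.06, adjusted p = 0.0266, edgeR), and ALPL fell less in MMP2sh2 than in control, by 1.13 (SE 0.31, adjusted p = 0.0288, edgeR). Each was 1 of 7 genes tested, where 7.40% of all genes were called in MMP2sh1 and 4.98% in MMP2sh2. Each call was lost in 6 of the 12 fits that leave out 1 library. For SPARC these were the fits without control replicate 1, 2 or 3 or MMP2sh1 replicate 2 of day −2, or control replicate 2 or 3 of day +2 (adjusted p 0.0520 to 0.0660). For ALPL they were the fits without control replicate 1 or 3 or MMP2sh2 replicate 1 of day −2, control replicate 2 or 3 of day +2, or MMP2sh2 replicate 3 of day +2 (adjusted p 0.0575 to 0.127). The other members did not pass this test, with RUNX2 at 0.02 and 0.20, SPP1 at 0.16 and 0.31 and MSX2 at −0.39 and −0.28 in MMP2sh1 and MMP2sh2.

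Among other osteoblast transcription factors, more fell than rose from day −2 to day +2 in each line. Of 14 listed, 11 were tested, and in control 2 rose and 5 fell, in MMP2sh1 2 and 6, and in MMP2sh2 2 and 7, with medians of −0.22, −0.41 and −0.37 against 0.03, 0.04 and 0.05 for all genes, of which 28.1%, 27.3% and 27.7% rose and 28.6%, 27.7% and 27.1% fell. CREB3L1, which drives collagen secretion, fell from 46.3 ± 2.36 to 8.79 ± 0.699 CPM in control (log2 fold change −2.41, adjusted p = 9.4e-19) and changed by −2.49 and −2.32 in MMP2sh1 and MMP2sh2. FOSL2, an AP-1 factor, changed by −1.48 in control, −1.18 in MMP2sh1 and −1.21 in MMP2sh2, and TWIST2, a repressor of RUNX2 activity, by −0.48, −0.79 and −0.90. FOSL1, another AP-1 factor, was higher than control in both hairpin lines at day −2 (0.33 and 0.42) and day 0 (0.25 and 0.53), and at day +2 was −0.03 in MMP2sh1 (not called) and −0.24 in MMP2sh2 (called lower). ATF4, which promotes osteocalcin transcription, was higher in both at day +2, by 0.17 and 0.16, and passed the test in neither line at the other days.

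Among bone matrix and mineralisation genes, more rose than fell over the same days in each line. Of 20 listed, 12 were tested in control, where 8 rose and 3 fell (median 0.69). The 3 that fell there were PHOSPHO1 (−1.23), SLC20A2 (−0.86) and the collagen gene COL1A1 (−0.15), and COL1A2 was below the filter on low counts. In MMP2sh1, 8 of 14 rose and 2 fell (median 0.82), and in MMP2sh2 6 of 12 rose and 3 fell (median 0.38), beside the shares and medians of all genes just given, 27.3% to 28.1% higher, 27.1% to 28.6% lower and 0.03 to 0.05. MGP, an inhibitor of calcification, went from 0.0714 ± 0.104 to 7.39 ± 0.492 CPM in control (6.34, SE 0.37, adjusted p = 4.9e-14, edgeR). The fitted amounts were 5.90 in MMP2sh1 and 6.39 in MMP2sh2. MGP was near the limit of detection at day −2 in the hairpin lines too (0.122 ± 0.137 and 0.0673 ± 0.116 CPM). The size of these folds is therefore uncertain. ENPP1, which makes the pyrophosphate that alkaline phosphatase removes, rose from 9.45 ± 0.561 to 35.0 ± 8.67 CPM in control (1.87) and by 2.06 in MMP2sh1 and 0.57 in MMP2sh2. ALPL fell over the same days in control and MMP2sh1. PHEX, an endopeptidase of phosphate balance that was also listed among osteocyte genes, rose by 2.27, 2.41 and 2.44. BGN, a matrix proteoglycan, rose in control from 0.157 ± 0.0882 to 1.20 ± 0.137 CPM (2.83, SE 0.53), also from near the limit of detection. Its 0.70 in MMP2sh1 and 1.04 in MMP2sh2 did not pass the test (adjusted p = 0.343 and 0.112, edgeR). No gene of this list was called with 1 sign in both hairpin lines at the same day.

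Among 13 of 16 bone cell signalling genes that were tested, 8 rose and 3 fell in control (median 0.25), 9 and 3 in MMP2sh1 (0.58), and 8 and 3 in MMP2sh2 (0.32), where 27.3% to 28.1% of all genes rose and 27.1% to 28.6% fell. TNFRSF11B, the decoy receptor osteoprotegerin that restrains osteoclast formation, rose from 14.3 ± 1.19 to 104 ± 4.96 CPM in control (2.86, SE 0.07, adjusted p = 6.8e-22, edgeR), to 244 ± 19.7 CPM in MMP2sh1 (3.85) and to 118 ± 11.6 CPM in MMP2sh2 (3.56). CDH11, a cadherin of osteoblasts, rose by 0.99, 1.45 and 1.03, and VDR, the vitamin D receptor, changed by −0.82, −0.54 and −0.80. PTH1R, the parathyroid hormone receptor, rose in control (1.58, SE 0.52, adjusted p = 0.0114, edgeR) and did not pass the test in MMP2sh1 (0.68) or MMP2sh2 (−0.62). Its levels were low, from 0.260 ± 0.0806 to 0.799 ± 0.144 CPM in control. They were uneven in some hairpin groups, with 0.573 ± 0.462 CPM in MMP2sh1 at day +2 and 0.476 ± 0.503 CPM in MMP2sh2 at day −2. GJA1, the gap junction protein connexin 43, was lower than control in both hairpin lines at every day, with log2 fold changes of −0.38, −0.62 and −0.35 in MMP2sh1 and −0.24, −0.57 and −0.29 in MMP2sh2. BMPR1B, a bone morphogenetic protein receptor, was higher in both at day +2, at 23.3 ± 3.36 and 18.2 ± 1.24 CPM against 12.6 ± 1.33 CPM. Of 8 osteocyte genes only 3 were tested. CD44, a hyaluronan receptor that also binds SPP1, fell in control (−0.37) and in MMP2sh2 (−0.20), was 0.13 in MMP2sh1 (adjusted p = 0.0791, edgeR), and was higher than control in both hairpin lines at day 0 (0.27 and 0.26) and day +2 (0.61 and 0.22).

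Markers of other cell types were checked, since U2OS cultures could express more than one programme. The 9 chondrocyte genes summed to 163 to 390 CPM over the 9 groups, with SOX9, a cartilage regulator, at 112 to 310 CPM, and 5 of the 9 reached 1 CPM in some group. Epithelial genes summed to 381 to 733 CPM (4 of 5 at 1 CPM or more), nearly all from the keratins KRT8 and KRT18, which many cultured cells express. Adipocyte genes summed to 28.3 to 52.0 CPM (2 of 7, with ADIPOQ at 0), osteoclast and monocyte genes to 36.9 to 58.9 CPM (5 of 10, mostly NFATC1), skeletal muscle genes to 4.15 to 6.02 CPM (1 of 7, with MYOG and MYF5 at 0) and endothelial genes to 3.83 to 6.34 CPM (2 of 4). Neither the chondrocyte nor the adipocyte list moved one way in control over the expansion: SOX9 (0.89), SOX5 (2.21) and SOX6 (2.23) rose while ACAN, a cartilage proteoglycan, fell (−1.78), and LPL, lipoprotein lipase, rose (0.82) while PPARG, an adipocyte factor, fell (−1.61). Their part in the changes of the osteoblast genes was not tested.

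The genes whose profiles were most like those of the members were found by Pearson's r of log2 CPM over the 27 libraries among 15429 other genes with at least 10 reads in each. These libraries share their day and line, so that r is a description. How far it follows the day or the line was not tested. RUNX2 was most like TIA1 (r = 0.972), ABCG1 (0.968) and OSBPL10 (0.965), MSX2 like ADA (0.944), TPI1 (0.924) and UBL7 (0.923), and ALPL like HTR3A (0.868) and SLAMF7 (0.841). SPARC was most like SRPX (0.963), PGM1 (0.939) and ELTD1 (0.936), and SPP1 like KCTD12 (0.969), IDS (0.967) and OSCAR (0.966). ALPL thus had the weakest nearest profiles of the 5.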

How the data were processed

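Poly(A) RNA of 27 U2OS libraries (NEBNext Ultra II, paired 150-base reads on a NovaSeq) was processed by the authors with Trim Galore 0.6.0, STAR 2.7.3a on hg19 and HTSeq 2.0.0, per their processing notes and methods. What the authors deposited are whole-number read counts for each gene symbol, not normalized; HTSeq ran in union mode on exons without use of strand, so reads of overlapping and antisense genes cannot be told apart, and the annotation is not given in the sources used here. The 5 summary lines that name no gene held 16.8% to 19.1% of each total and were left out. Libraries were grouped by the labels. No 2 replicates agreed within sampling noise (chi-square per degree of freedom 4.58 to 22.2 over 27 pairs).

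Each comparison was fitted to all genes with edgeR 4.0.16 in R 4.3.3 on its own 6 libraries (12 for the interaction of line with days −2 and +2), after TMM scaling and filterByExpr (minimum total 15, minimum count 10), by the quasi-likelihood test; p-values were adjusted by Benjamini-Hochberg, and an adjusted p under 0.05 was called. SE is the log2 fold change divided by the root of F, and intervals are at 95%. The comparisons were each later day with each earlier day within a line and each hairpin line with control at each day. Per-length levels used GENCODE v44lift37 exons, matched for 33510 symbols. The fits were tested on simulated data. Alternatives were median-of-ratios scaling, no filter, DESeq2 1.42.0, edgeR on all 27 libraries, the replicate number as a block, each library left out, and the longest transcript as length.

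Named were all 9 members, MMP2, from each list up to 4 genes called in control between days −2 and +2 with the largest change and up to 2 called with 1 sign in both hairpin lines at the most days, and the 3 genes most like each well-measured member (prior count 2). Some genes that this rule names are not reported here. Members of the other-cell lists, PMF1, PHOSPHO1, SLC20A2, COL1A1 and COL1A2 were named after their values were seen. The 9 members, the gene lists and the tests were chosen with earlier results of these data known.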

Additional observations from a re-analysis of the deposited data

Results flagged for a closer look

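The response to expansion, from day −2 to day +2, was set against that of control by a test of the difference itself (the line by day interaction of edgeR). In each hairpin line 1 of 7 genes tested differed, where 7.40% of all genes were called in MMP2sh1 and 4.98% in MMP2sh2. SPARC differed in MMP2sh1 by 0.23 on the log2 scale (SE 0.06, 95% interval 0.10 to 0.36, adjusted p = 0.0266). Its own response was 0.54 in MMP2sh1 and 0.32 in control, higher at day +2 in all 3 libraries of each line. ALPL differed in MMP2sh2 by 1.13 (SE 0.31, 95% interval 0.49 to 1.76, adjusted p = 0.0288). Its own response was −0.05 in MMP2sh2, where the libraries of both days overlapped, and −1.18 in control, where every library of day +2 lay below every library of day −2. Each call was lost in 6 of the 12 fits that leave out 1 library (adjusted p 0.0520 to 0.0660 for SPARC and 0.0575 to 0.127 for ALPL), that of SPARC also with no filter and that of ALPL also with all 27 libraries. In the other hairpin line, ALPL differed by 0.27 (adjusted p = 0.679, MMP2sh1) and SPARC by −0.10 (adjusted p = 0.397, MMP2sh2).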

How the results depend on the processing

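Of the 46 calls made on RUNX2, MSX2, ALPL, SPARC and SPP1, none changed direction, whether under the 5 other settings (217 of 230 values kept the call, 13 lost it) or with 1 library left out (245 of 288 kept it, 43 lost it). The number of members called in MMP2sh1 at day −2 against control went from 2 to 1 with edgeR on all 27 libraries. In MMP2sh2 it went from 1 to 0 at day −2 with median-of-ratios scaling and with no filter, and from 1 to 0 at day 0 with no filter and with all 27 libraries. The interaction count went from 1 to 0 in MMP2sh1 with no filter and in MMP2sh2 with all 27 libraries. Smaller changes were from 5 to 6 in control over the expansion (no filter, DESeq2 and all 27 libraries) and, with all 27 libraries, from 3 to 4 in control after day 0, from 2 to 3 in MMP2sh1 before it and from 4 to 3 in MMP2sh2 before it. These counts do not show which genes were called. BGLAP was called in control from day 0 to day +2 with no filter and with DESeq2. SP7 was called in MMP2sh2 from day −2 to day 0 with no filter.

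With 1 library left out, the number called ranged from 2 to 4 in the step to day 0 in both MMP2sh1 and MMP2sh2. Against control it ranged from 0 to 2 in MMP2sh1 at day −2 and from 1 to 3 at day +2, was 0 in every such fit in MMP2sh2 at day −2, and ranged from 0 to 2 at day 0. For each interaction it ranged from 0 to 1. Values that were not called changed sign in some of these fits. DLX5 ranged from −0.13 to 0.60 and −0.0703 to 0.70 in the 2 control steps, from −0.49 to 1.67 in MMP2sh1 and −1.73 to 0.18 in MMP2sh2 over the expansion, from −0.94 to 0.19 and −1.40 to 0.64 in the MMP2sh2 steps, from −0.32 to 0.45 in MMP2sh2 against control at day −2 and from −1.04 to 1.14 in the MMP2sh1 interaction. ALPL ranged from −0.29 to 0.0712 over the MMP2sh2 expansion and from −0.0445 to 0.30 in MMP2sh1 against control at day 0. MSX2 against control ranged from −0.0637 to 0.12 (MMP2sh1, day −2), −0.0774 to 0.0624 (MMP2sh1, day 0) and −0.0311 to 0.10 (MMP2sh2, day −2). BGLAP ranged from −1.24 to 0.54 in MMP2sh1 against control at day +2, and RUNX2 from −0.0403 to 0.0779 in the MMP2sh1 interaction. The DLX5 value from day 0 to day +2 in MMP2sh2, 0.02, became −0.0014 with no filter and −0.00696 with all 27 libraries. The cause of these changes was not tested.

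Little pairing by replicate number was seen. Deviations of same-numbered libraries correlated at −0.025 to 0.026, and no comparison had every pair above 0.1. A library correlated best with its own number in 18 of 45 pairs, among them every pair of MMP2sh1 day 0 with its day −2 and with control day 0. Such a check over all genes cannot exclude a weak pairing. With the replicate block, the number called in MMP2sh2 against control went from 1 to 0 at days −2 and 0, the uncalled DLX5 value became 0.43 over the MMP2sh1 expansion and −0.28 from day 0 to day +2 in MMP2sh2, and the other 15 counts had the same value. The order of the 9 genes by level per length was the same with the longest transcript. Depth limits DLX5, BGLAP, SP7 and IBSP, with at most 30 reads in any library.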
